A study of Danio rerio with 2 samples.

Results

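The immunoglobulin-family adhesion genes described here are cell surface proteins with immunoglobulin domains that neurons and glia use to hold, guide and recognise each other. Genes were taken by symbol (*ncam*, *alcam*, *l1cam*, *cntn* with a digit, *nrcam*, *chl1*, *dscam*, *nfasc*, *lsamp*, *negr1*, *opcml*, *cadm*, *igsf* and *mcam*), which gave 45 of the 27771 gene identifiers in the files. The *lsamp* pattern matched no symbol. An identifier written in capitals, *NCAM2* with 333 unique molecular identifiers (UMIs), fell outside the rule and was not counted. Zebrafish carrying *Tg(olig2:dsred)*, outcrossed to wild type, were the only genotype, and no agent was given. Trunks without heads were pooled and dissociated with trypsin, fluorescent cells were sorted, and single-cell RNA-seq was performed once at 60 hpf and once at 28 hpf. In this line the *olig2* regulatory element drives dsRed, and the protein lasts for a time in the progeny of *olig2* cells, so the sort also takes neurons and glia that have switched the gene off, together with cells outside the spinal cord. The third stage of the study, 42 hpf, was not analysed here. With no replicate library, no test was made, and each 95% interval covers counting error only, not the difference between embryos or captures.

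Most of these proteins bind the same protein on the opposite cell, and many also bind other family members, so that the set a cell carries helps decide which neighbours it sticks to. L1 proteins, contactins and NCAM are best known from axon growth and bundling, DSCAM proteins from self-avoidance of neurites and CADM proteins from synapses and from contacts of myelinating glia with axons. In motor neurons, ALCAM is a surface antigen long used in fish to label secondary motor neurons, and in oligodendrocytes neurofascin and CADM4 are known from the contact with the axon.

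The 60 hpf file held 7905 cells and 70432500 UMIs, and the 28 hpf file 10124 cells and 95108584 UMIs. A minimum of 1000 genes left 5517 cells of the 60 hpf library (median depth 6809 UMIs) and 8390 of the 28 hpf library (7375 UMIs). The libraries shared 16 barcodes among the cells kept. Cells were clustered with the family genes left out, and clusters were named from marker lists, so each class name ends in -like and need not hold the same cells as in the study. The classes used most were motor neuron-like cells (2928 at 60 hpf, 701 at 28 hpf), V2b/KA GABAergic neuron-like cells (342 and 1566), V3 interneuron-like cells (251 and 73), neuronal precursor-like cells at 28 hpf (1430), pMN progenitor-like cells (59 and 1492) and OPC/OL-like cells of the oligodendrocyte lineage at 60 hpf (351). Because few pMN progenitor-like cells were left at 60 hpf, and 45 of the 59 lay in a cluster with tail *hox13* genes, a radial glia-like cluster with *olig2* (455 cells, *olig2*-high radial glia-like) was added as a second class to compare with. A radial glia-like cluster with little *olig2* (189 cells) is given as *olig2*-low. A level below is the UMIs of a gene summed over a class, per 10000 UMIs of that class.

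The 45 members together had 631971 UMIs. CADM genes gave 23.3% of them, the ALCAM and MCAM genes 22.6%, the L1 group 18.3%, NCAM 16.8%, DSCAM 6.11%, contactins 6.05%, the *igsf* genes 4.02% and the IgLON genes *negr1* and *opcml* 2.80%. By level per 10000 UMIs, the family was a neural one in these libraries. Its summed level was between 29.5 and 90.3 in the neural classes. At 60 hpf it was 12.9 in muscle-like, 11.2 in mesenchyme-like, 4.77 in skin epithelium-like and 1.91 in immune-like cells. Erythroid-like cells had 2.36 at 60 hpf and 1.64 at 28 hpf. These red cells should lack neural adhesion genes and serve below as a rough gauge of free RNA. Their totals are mostly hemoglobin (78.9% at 60 hpf and 59.4% at 28 hpf), so a level per 10000 and a thinned share understate it. As UMIs per cell, with no division by the total, the family had 7.4 in erythroid-like cells at 60 hpf. It had 88.9 in motor neuron-like, 39.4 in OPC/OL-like, 33.9 in *olig2*-high radial glia-like and 28.2 in pMN progenitor-like cells. The OPC/OL-like value includes 48 cells of a mixed part with 43.8% predicted doublets, and its order against radial glia-like cells is not read. Muscle-like cells, with a median depth of 14281 UMIs, had 2015 family UMIs in 79 cells. Per cell this was near the 1661 UMIs in 59 pMN progenitor-like cells. At 28 hpf it had 5.52 in erythroid-like cells, against 42.8 in motor neuron-like and 21.3 in pMN progenitor-like cells.

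Motor neuron-like cells carried the highest summed level at both stages, 90.3 (90 to 90.7) at 60 hpf and 55.4 (54.8 to 56.0) at 28 hpf. At 60 hpf V2b/KA GABAergic neuron-like cells had 55.6, OPC/OL-like cells 47.9 and *olig2*-low radial glia-like cells 47.6. V3 interneuron-like cells had 44.2, *olig2*-high radial glia-like cells 43.4 and pMN progenitor-like cells 35.9. The OPC/OL-like sum includes a mixed part (48 cells, 43.8% predicted doublets) led by motor neuron genes, so its place in this order is not read. At 28 hpf the order of the other named neural classes was GABAergic 52.5, neuronal precursor-like 46.3, lateral floor plate-like 39.1, V3 38.6, cycling progenitor-like 35.9, floor plate-like 32.5 and pMN progenitor-like 31.3. A cluster that no marker list named (410 cells at 28 hpf, 51.2% predicted doublets) had 51 and was left out of the comparisons. The leading gene differed between classes of similar sum. It was *alcama* in motor neuron-like cells at 60 hpf (24.7% of the family's UMIs) and in *olig2*-high radial glia-like cells (31.2%), *cadm4* in OPC/OL-like cells (29.3%) and in motor neuron-like cells at 28 hpf (17.7%), and *chl1b* in *olig2*-low radial glia-like cells (38.8%).

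**Figure D1:**
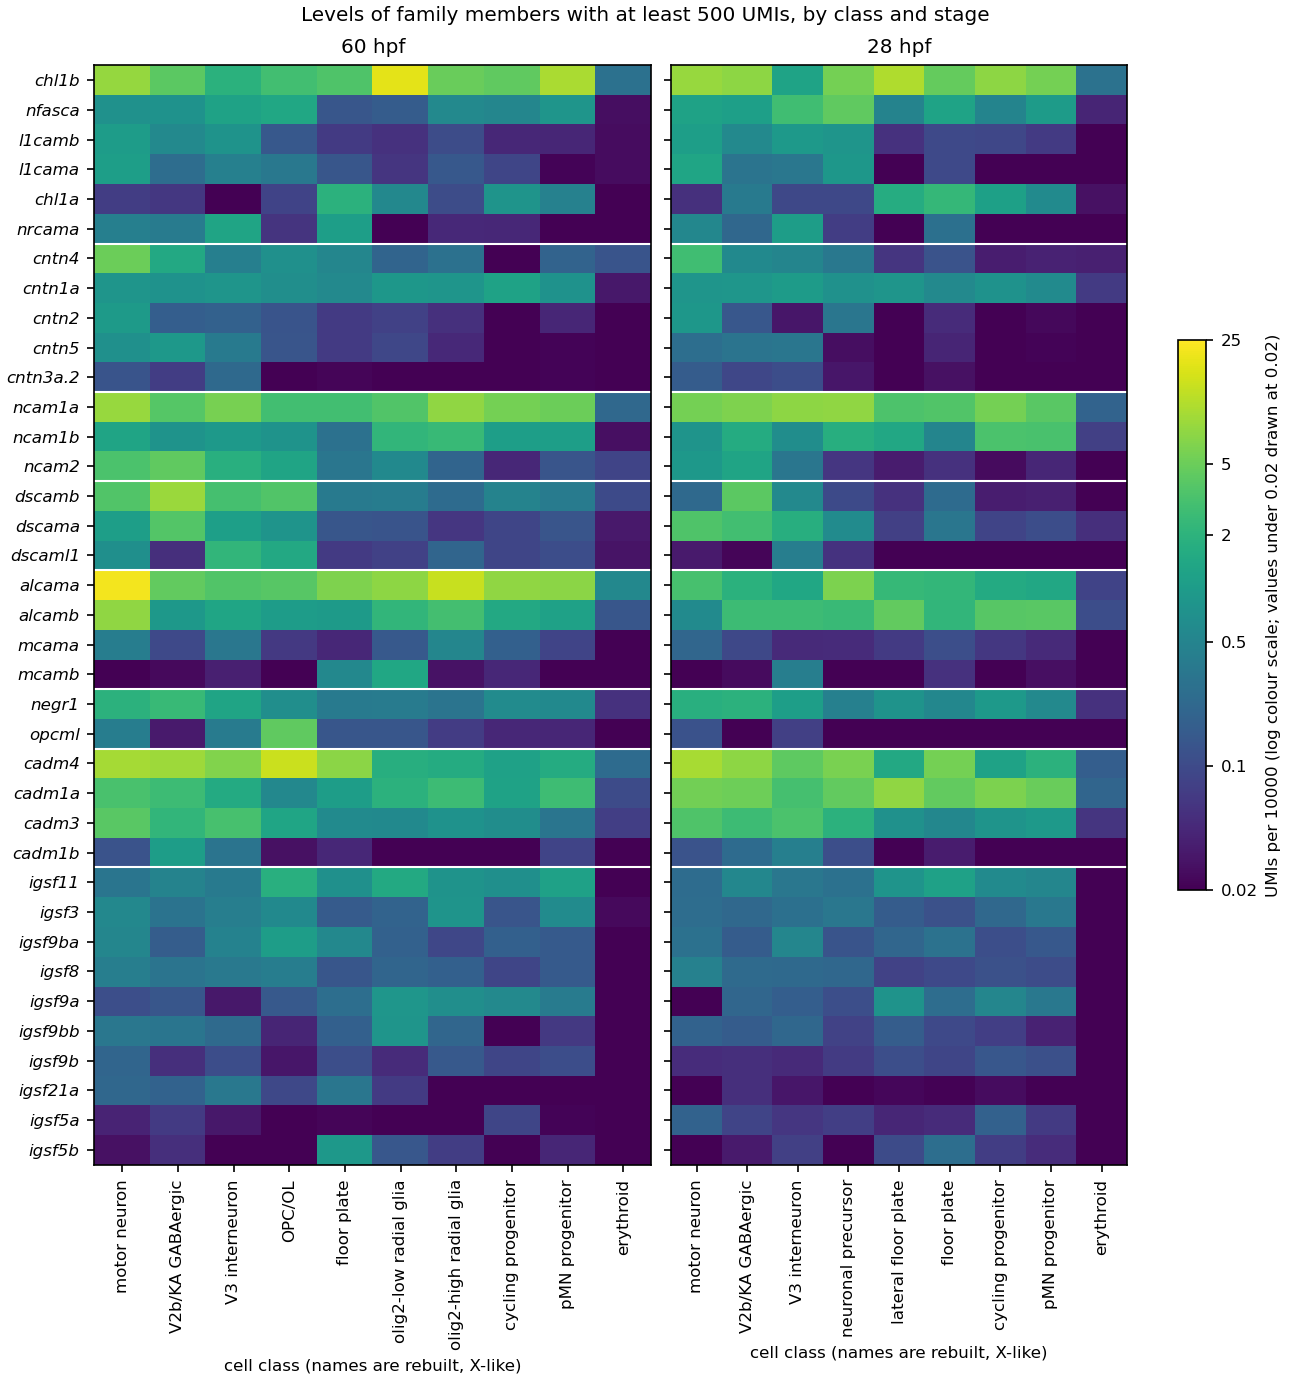
Levels of the 37 members with at least 500 UMIs (rows, grouped by subfamily) in the cell classes (columns) at 60 hpf and 28 hpf, in UMIs per 10000 on a logarithmic colour scale; values under 0.02 are drawn at 0.02. The brightest squares are *alcama* in motor neuron-like cells at 60 hpf (22.3) and *chl1b* in *olig2*-low radial glia-like cells (18.5), and the erythroid-like column, whose totals are mostly hemoglobin, is given for comparison.

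Because deeper cells show more genes, each cell was thinned to 2000 UMIs before counting how many members it held. The mean was 7.89 members per motor neuron-like cell and 4.37 per *olig2*-high radial glia-like cell at 60 hpf, a ratio of 1.81. At 28 hpf it was 6.67 per motor neuron-like cell and 4.04 per pMN progenitor-like cell, a ratio of 1.65. GABAergic cells held 6.39 at 60 hpf and 6.46 at 28 hpf, neuronal precursor-like cells 5.17 and OPC/OL-like cells 4.54. Neurons therefore showed more members per cell than progenitors at equal depth, but V3 interneuron-like cells by less, with 5.2 at 60 hpf and 4.88 at 28 hpf. Lateral floor plate-like cells (4.48) and cycling progenitor-like cells (4.38) of 28 hpf came near the latter. The OPC/OL-like mean includes the mixed part, so its place against radial glia-like cells is not read. Erythroid-like cells held 0.391 at 60 hpf and 0.248 at 28 hpf. Without thinning the means were 14.3 for motor neuron-like and 8.15 for *olig2*-high radial glia-like cells at 60 hpf, 12.2 for motor neuron-like and 7.61 for pMN progenitor-like cells at 28 hpf, and about 2 for erythroid-like cells (2.07 at 60 hpf and 2.10 at 28 hpf), whose median depths were 31210 and 33266 UMIs. The median depth was 5974 UMIs in motor neuron-like and 5957 in *olig2*-high radial glia-like cells at 60 hpf, and 7201 in motor neuron-like and 5996 in pMN progenitor-like cells at 28 hpf.

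**Figure D2:**
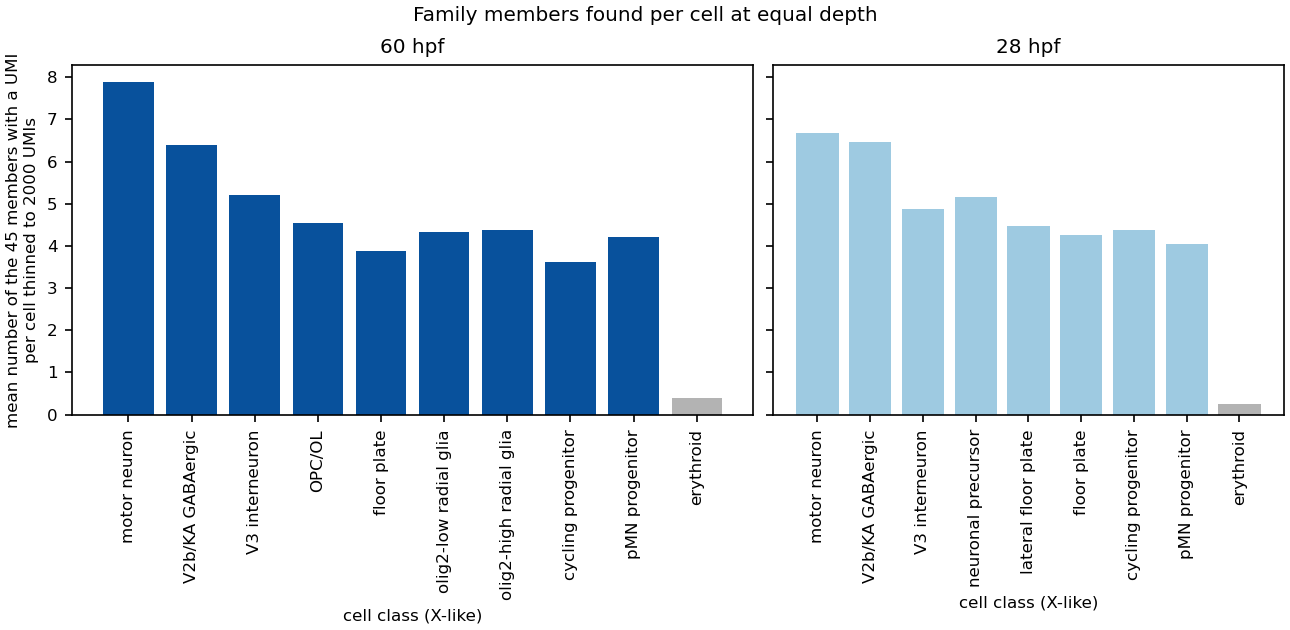
Mean number of the 45 members with at least 1 UMI per cell (y axis) after thinning each cell to 2000 UMIs, by cell class (x axis) at 60 hpf and 28 hpf; bars are means over cells and carry no error, as cells are not replicates. Motor neuron-like cells stand highest at both stages (7.89 at 60 hpf and 6.67 at 28 hpf) and erythroid-like cells, in grey, lowest among the classes drawn.

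To see which members separate motor neurons from their progenitors, levels in motor neuron-like cells were set against pMN progenitor-like cells at 28 hpf. Of the 38 members with at least 20 UMIs in either class, 23 were at least 2-fold higher in the motor neuron-like cells and 7 at least 2-fold lower. Over all genes, 32.5% were higher and 26.6% lower by the same rule, so the members' share of higher genes (60.5%) stood above this background and their share of lower genes (18.4%) below it. The median log2 ratio was 2.04 over the members and 0.19 over all genes. In this contrast the list of 16 dissociation response genes was at 57.2 per 10000 in the motor neuron-like and 112 in the pMN progenitor-like cells, and its part in the differences was not tested. Each of the 30 members counted was above the UMIs per cell of erythroid-like cells in the class where it was higher. On the low side several were at or below them, such as *cntn4* (0.0268 UMIs per pMN progenitor-like cell, 0.124 per erythroid-like cell), *dscama* (0.0737 and 0.176) and *l1cama* (0.0101 and 0.0263), so their levels in pMN progenitor-like cells are not read as expression.

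Among the L1 genes, *l1cama* and *l1camb*, the zebrafish copies of the axonal adhesion gene L1CAM, were nearly restricted to the neuronal side. *l1cama* (ENSDARG00000007149) had 1.33 per 10000 in motor neuron-like and 0.0147 in pMN progenitor-like cells, a log2 ratio of 6.5 (5.77 to 7.34). *l1camb* had 1.08 and 0.0677 (log2 4.0), and *nrcama*, a further axonal member, 0.546 and 0.00786 (log2 6.12). *chl1b*, a close homolog of L1, behaved otherwise, with high levels on both sides: 8.23 in motor neuron-like and 5.58 in pMN progenitor-like cells (log2 0.56). Its copy *chl1a* was lower in the motor neuron-like cells, with 0.0535 against 0.612 in pMN progenitor-like cells (log2 −3.51, −4.11 to −2.98). *nfasca*, the neurofascin gene, was within 2-fold at 1.21 and 1.01.

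Contactins are axonal proteins held by a lipid anchor. *cntn4* (ENSDARG00000098161) had 2.83 per 10000 in motor neuron-like and 0.0393 in pMN progenitor-like cells (log2 6.17, 5.72 to 6.66), and *cntn2*, which encodes the early axonal protein TAG-1, 0.860 and 0.0236 (log2 5.19). *cntn5* had 0.264 and 0.0216 (log2 3.61), and *cntn1b* 69 UMIs in motor neuron-like and 2 in pMN progenitor-like cells (log2 6.02, 4.11 to 9.09). In contrast, *cntn1a* was within 2-fold, with 0.818 and 0.599. The neighbouring copies *cntn3a.1* and *cntn3a.2* were both higher in motor neuron-like cells (log2 4.98 and 3.55), although reads of near copies could be split between them.

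NCAM and DSCAM genes divided by copy. *ncam1a* was abundant in both classes (5.59 in motor neuron-like, 4.07 in pMN progenitor-like cells), *ncam2* was neuronal (0.886 and 0.0432, log2 4.36), and *ncam1b* was lower in the motor neuron-like cells, at 0.808 against 3.25 in pMN progenitor-like cells (log2 −2.01, −2.16 to −1.87). *dscama* had 3.52 in motor neuron-like and 0.108 in pMN progenitor-like cells (log2 5.03, 4.75 to 5.32), whereas *dscamb* reached only 0.227 and 0.0373 (log2 2.60). After thinning, *ncam1a* was found in 58.7% (exact binomial interval 54.9 to 62.5%) of motor neuron-like cells, 51.1% (48.5 to 53.7%) of pMN progenitor-like cells and 2.22% of erythroid-like cells, and *dscama* in 46.8% (43 to 50.6%), 2.09% (1.42 to 2.95%) and 0.971%. Hence *ncam1a* was present in most cells of both kinds, and *dscama* nearly only in the neurons. Without thinning, *ncam1a* was found in 85.9% of motor neuron-like, 79.2% of pMN progenitor-like and 15.8% of erythroid-like cells, and *dscama* in 76.9%, 6.30% and 9.96%.

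The ALCAM copies ran in opposite directions at 28 hpf. *alcama* (ENSDARG00000026531) was higher in motor neuron-like cells, 3.11 against 1.44 in pMN progenitor-like cells (log2 1.11, 1.0 to 1.21). *alcamb* (ENSDARG00000058538) was lower, 0.607 against 4.05 (log2 −2.74, −2.9 to −2.58). After thinning, *alcamb* was found in 9.27% (7.18 to 11.7%) of motor neuron-like cells, 52.3% (49.7 to 54.9%) of pMN progenitor-like cells and 2.08% of erythroid-like cells, and without thinning in 22.8%, 83.7% and 17.7%.

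CADM proteins, also called nectin-like or SynCAM proteins, gave the largest subfamily sum in motor neuron-like cells at 28 hpf, 18.9 per 10000, against 7.81 in pMN progenitor-like cells. *cadm4* (ENSDARG00000040291) had 9.83 in motor neuron-like and 1.96 in pMN progenitor-like cells (log2 2.33, 2.25 to 2.40), and was found in 79.5% (76.3 to 82.5%) and 27.1% (24.9 to 29.5%) of thinned cells, with 2.64% in erythroid-like cells (96%, 50.4% and 17.2% without thinning). *cadm3* had 3.51 and 0.915 (log2 1.94), and *cadm1b* 0.124 and 0.0137. *cadm1a*, the most abundant member of the family in pMN progenitor-like cells after *chl1b*, was within 2-fold, at 5.44 and 4.92 (log2 0.14, 0.08 to 0.21). Of the IgLON genes, *negr1* was higher in motor neuron-like cells (1.80 and 0.581, log2 1.63), and *opcml* was low in both (0.120 and 0.00491). Of the *igsf* genes, *igsf9a* (0.0203 and 0.347, log2 −4.09), *igsf9b* (log2 −1.18), *igsf5b* (log2 −2.44) and *igsf11* (0.247 and 0.527, log2 −1.09) were lower in motor neuron-like cells, and *igsf21b* had 53 UMIs there and 3 in pMN progenitor-like cells (log2 5.05, 3.43 to 7.38).

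**Figure D3:**
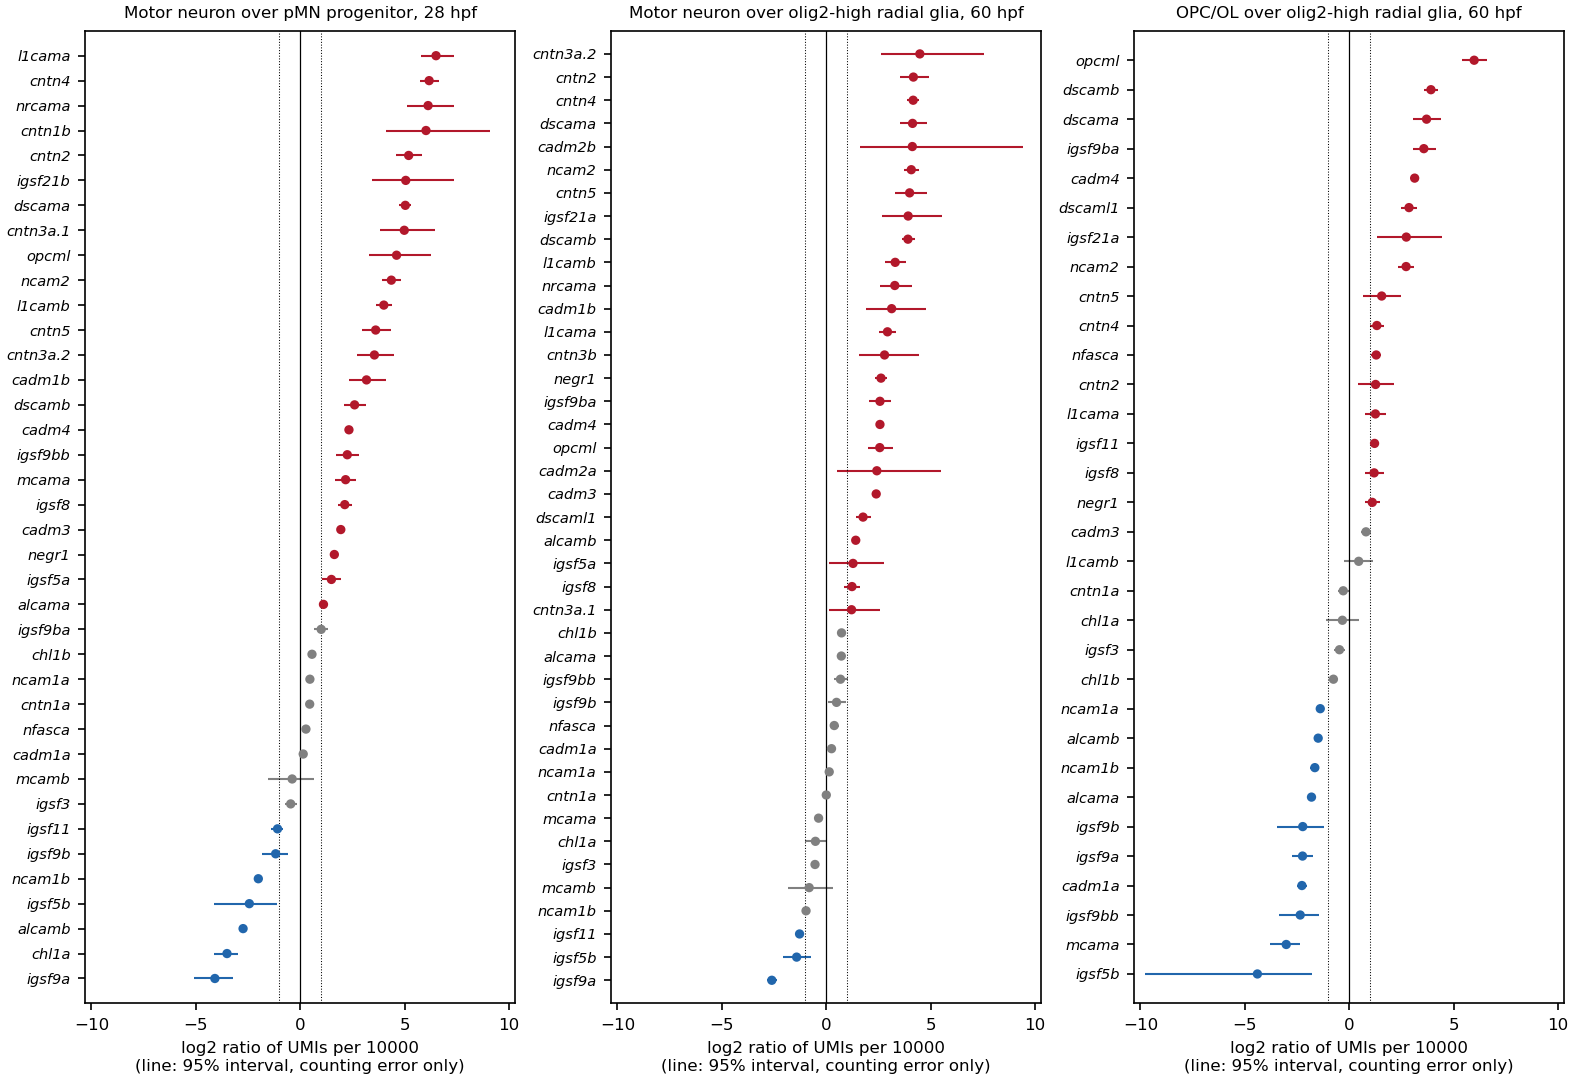
Log2 ratio of levels (x axis) for each member with at least 20 UMIs in either class (rows), in motor neuron-like over pMN progenitor-like cells at 28 hpf, motor neuron-like over *olig2*-high radial glia-like cells at 60 hpf, and OPC/OL-like over *olig2*-high radial glia-like cells at 60 hpf. Points are ratios and lines 95% intervals for counting error; red points are at least 2-fold higher, blue at least 2-fold lower and grey within 2-fold (dotted lines), and a member at 0 UMIs in the second class has no point. *l1cama* (6.5) and *igsf9a* (−4.09) end the first panel, and *opcml* (5.98) and *igsf5b* (−4.40) the third.

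The neuronal precursor-like cells of 28 hpf were intermediate between pMN progenitor-like and motor neuron-like cells for some members only. Of 35 members with enough UMIs, 16 were higher and 4 lower than in pMN progenitor-like cells, where 16.8% of all genes were higher and 22.8% lower. *l1cama* (0.860 in precursor-like, 0.0147 in pMN progenitor-like cells, log2 5.87), *l1camb* (0.814, log2 3.59) and *cntn2* (0.327, log2 3.79) were already high there. *nfasca* (4.36 and 1.01, log2 2.11) and *alcama* (6.04 and 1.44, log2 2.06) had their highest levels of any class of that stage in these cells. In contrast, *cntn4* (0.349), *dscama* (0.617) and *ncam2* (0.0626) were well below their motor neuron-like levels of 2.83, 3.52 and 0.886. The clusters of this class differed. *l1cama* had 1.41 per 10000 in the cluster with less *olig2* (cluster 5, 773 cells at 28 hpf) and 0.156 in the cluster with more *olig2* (cluster 9, 657 cells), and *chl1b* 8.34 and 2.0. *nfasca* and *ncam1b* went the other way, at 3.69 and 5.22 for *nfasca* and 1.2 and 2.48 for *ncam1b*. The 4 lower members against pMN progenitor-like cells were *chl1a* (0.0933 and 0.612, log2 −2.71), *mcamb*, *igsf5b* and *igsf9a* (log2 −1.96, −1.76 and −1.65). With the libraries clustered separately 7 of 32 members were higher, with 5.65% of all genes higher. The dissociation genes were at 62.3 per 10000 in neuronal precursor-like and 112 in pMN progenitor-like cells, and their part was not tested.

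In V2b/KA GABAergic neuron-like cells, which gather interneurons and cells that touch the cerebrospinal fluid, 21 of 39 members were higher and 2 lower than in pMN progenitor-like cells at 28 hpf, with 26.6% of all genes higher and 9.2% lower. *dscamb* (ENSDARG00000028118) led, with 4.14 per 10000 in GABAergic and 0.0373 in pMN progenitor-like cells (log2 6.79, 6.33 to 7.29). It was found in 55% (52.5 to 57.5%) of thinned GABAergic cells, against 3.44% (2.19 to 5.11%) of motor neuron-like, 1.14% of pMN progenitor-like and 0.416% of erythroid-like cells, and without thinning in 86.1%, 12.1%, 2.41% and 2.35%. Thus the DSCAM copies split between neuron classes at 28 hpf: *dscamb* was 4.14 in GABAergic and 0.227 in motor neuron-like cells, while *dscama* was similar in both, 2.92 and 3.52. *ncam2* (1.28 in GABAergic and 0.0432 in pMN progenitor-like cells, log2 4.89), *nrcama* (log2 4.77), *l1cama* (0.314, log2 4.42) and *cadm1b* (0.243 and 0.0137, log2 4.14) followed, and *ncam1b* (1.61 and 3.25, log2 −1.01) and *igsf9b* (log2 −1.12) were the lower ones. One of the GABAergic clusters (cluster 7) held 29.1% predicted doublets. Its *dscamb* level of 3.0 was below those of the other clusters of that stage, 7.0 and 4.04. Without this cluster 6 of 36 members were lower than in pMN progenitor-like cells, with 21.6% of all genes lower, so the count of lower members is not read as a result about them. The dissociation genes were at 85.2 per 10000 in GABAergic and 112 in pMN progenitor-like cells, and this was not tested as a part of the differences. At 60 hpf *dscamb* was at least 5.23 in every GABAergic cluster and reached 10.4 in cluster 20, where *ncam2* was 6.09 and *cadm1b* 1.54.

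V3 interneuron-like cells had the highest level of 8 members at 60 hpf and of 11 at 28 hpf, but only 4 and 5 of these were apart from the second class by their intervals. *dscaml1* was 2.21 there at 60 hpf and 0.418 at 28 hpf, and *nrcama* 1.3 and 1.07. A part of the OPC/OL-like class with *olig1*, described below, had a like *dscaml1* level at 60 hpf, 2.2 (1.94 to 2.48). At 60 hpf the *nrcama* level of floor plate-like cells, 1.09, was not apart from it (log2 0.26, −0.19 to 0.74). *mcamb*, a copy of the melanoma cell adhesion gene, was 0.0378 at 60 hpf and 0.418 at 28 hpf, against which all other classes of 28 hpf had 0.055 or less. *chl1b* was low in V3 interneuron-like cells at both stages, 1.89 and 1.24, and some clusters of other neurons came near it, such as GABAergic cluster 19 (2.32) and motor neuron-like cluster 4 (2.92) at 60 hpf.

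The ventral progenitor classes led for some members, several of them by less than 2-fold. Lateral floor plate-like cells had the highest *chl1b* (10.8), *cadm1a* (7.66), *alcamb* (4.50) and *igsf9a* (0.788) of 28 hpf. The next classes were near: motor neuron-like for *chl1b* (8.23), cycling progenitor-like for *cadm1a* (6.17) and *igsf9a* (0.521), and pMN progenitor-like for *alcamb* (4.05). Floor plate-like cells had the highest *chl1a* (1.98 at 60 hpf and 2.34 at 28 hpf) and *igsf5b* (0.888 and 0.261). For *chl1a* at 28 hpf, lateral floor plate-like cells came next with 1.64. *ncam1b* was highest in cycling progenitor-like cells at 28 hpf, 3.36, which was not apart from the 3.25 of pMN progenitor-like cells (log2 0.05, −0.02 to 0.11). At 60 hpf it was 2.47 in *olig2*-high and 2.2 in *olig2*-low radial glia-like cells. The *olig2*-low cells also had the highest *chl1b* of either library, 18.5, found in 84% (77.9 to 88.9%) of thinned cells, against 4.34% of erythroid-like cells (94.7% and 13.2% without thinning), and the highest *mcamb* (1.41), *igsf9bb* (0.822) and *igsf9a* (0.853) of 60 hpf, the last hardly apart from the 0.687 of *olig2*-high cells (log2 0.31, 0.00 to 0.62).

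At 60 hpf, motor neuron-like cells were set against the *olig2*-high radial glia-like cells. Of 42 members, 26 were higher and 3 lower, with 26.8% of all genes higher and 16% lower. The median was 1.80 over members and 0.28 over all genes. The largest ratio, of *cntn3a.2* (log2 4.48, 2.62 to 7.54), rested on 2 UMIs in radial glia-like cells. Next, *cntn2* had 0.965 in motor neuron-like and 0.0535 in radial glia-like cells (log2 4.17), *cntn4* 5.09 and 0.284 (log2 4.16), *dscama* 1.09 and 0.0620 (log2 4.13), *ncam2* 3.32 and 0.197 (log2 4.07), *cntn5* 0.715 and 0.0451 (log2 3.99), *igsf21a* 0.214 and 0.0141 (log2 3.92, from 5 UMIs in radial glia-like cells) and *dscamb* 3.65 and 0.242 (log2 3.91). *l1cama* had 1.09 and 0.144 (log2 2.93), and *cadm4* 9.51 and 1.60 (log2 2.57, 2.45 to 2.70). In radial glia-like cells *cntn2*, *cntn4*, *cntn5*, *dscama*, *dscamb* and *ncam2* were at or below the UMIs per cell of erythroid-like cells (0.222 and 0.4 for *cntn4*, 0.189 and 0.313 for *dscamb*).

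*alcama* was high in both classes at 60 hpf, 22.3 in motor neuron-like and 13.6 in *olig2*-high radial glia-like cells (log2 0.72, 0.67 to 0.76), and was found in 77.3% (75.7 to 78.8%) and 75.2% (71 to 79.1%) of thinned cells, against 4.53% of erythroid-like cells. Without thinning the shares were 87.5%, 90.1% and 22.6%. *alcamb* was 7.75 in motor neuron-like and 2.93 in radial glia-like cells (log2 1.41). *chl1b* (8.13 and 4.90), *ncam1a* (8.37 and 7.61), *cadm1a* (3.20 and 2.69) and *cntn1a* (0.833 and 0.831) were within 2-fold. Lower in motor neuron-like cells were *igsf9a* (0.112 and 0.687, log2 −2.61), *igsf5b* (log2 −1.42) and *igsf11* (0.322 and 0.783, log2 −1.28), and *ncam1b* came near the limit at 1.27 and 2.47 (log2 −0.97). The dissociation genes were at 73.4 per 10000 in motor neuron-like and 113 in radial glia-like cells, and their part was not tested.

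Against the 59 pMN progenitor-like cells of 60 hpf, 21 of 42 members were higher in motor neuron-like cells and 3 lower, with 18.9% of all genes higher and 20.2% lower. *alcamb* was 7.75 in motor neuron-like and 1.19 in pMN progenitor-like cells (log2 2.71, 2.33 to 3.12), the opposite side from 28 hpf. *alcama* was 22.3 and 7.28 (log2 1.61, 1.46 to 1.77). *chl1a* (log2 −2.64), *igsf11* (log2 −1.86) and *igsf9a* (log2 −1.79) were the lower ones. This class was thin: *nrcama* was at 0 UMIs in it, and *l1cama* at 1. With cells of at least 500 genes, *igsf11* and *igsf9a* were no longer lower (log2 0.06 and 0.04).

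Across stages, 15 of 43 members were higher and 5 lower in motor neuron-like cells of 60 hpf than of 28 hpf, with 19.4% of all genes higher and 10.6% lower. The library, the age and the clusters change together here, since nearly all motor neuron-like cells of 60 hpf lay in clusters 1, 4, 11 and 14 (14 and 8 cells lay in clusters 8 and 26) and those of 28 hpf in clusters 8 and 26 (2 cells lay in cluster 14), so age and library cannot be told apart. The ALCAM genes stood out by amount. *alcama* had 22.3 per 10000 at 60 hpf and 3.11 at 28 hpf (log2 2.84, 2.77 to 2.91), and *alcamb* 7.75 and 0.607 (log2 3.67, 3.52 to 3.84), so that the subfamily sum was 30.5 at 60 hpf and 3.95 at 28 hpf. *dscaml1* had 0.697 and 0.0332 (log2 4.39), *dscamb* 3.65 and 0.227 (log2 4.01), *ncam2* 3.32 and 0.886 (log2 1.90) and *igsf21a*, whose mouse counterpart is a synaptic organiser, 0.214 and 0.0129 (log2 4.05). *dscama* was lower at 60 hpf, 1.09 against 3.52 at 28 hpf (log2 −1.70, −1.78 to −1.61), as were *igsf21b* (log2 −3.97), *igsf5a* (log2 −2.21), *cntn3a.1* (log2 −2.03) and *cntn1b* (log2 −1.44). *chl1b* (8.13 and 8.23), *cadm4* (9.51 and 9.83), *l1camb* (1.02 and 1.08) and *cntn1a* (0.833 and 0.818) were close.

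The 60 hpf motor neuron-like clusters did not carry the same set. *alcama* was 26.2 in cluster 1 (1205 cells, led by *bmp16* and *esrrga*) and 30.1 in cluster 11 (494 cells with *hox13* genes), but 8.87 in cluster 4 (822 cells, *gfra1a* and *nefmb*) and 5.21 in cluster 14 (385 cells, *calca* and *uts1*). *alcamb* was highest in cluster 4 (11.6) and cluster 1 (8.57), and low in cluster 11 (1.80) and cluster 14 (0.498). Therefore each of the 4 clusters had its own combination of the ALCAM copies, and the 28 hpf clusters, at 3.10 and 3.21 for *alcama* and 0.589 and 0.901 for *alcamb*, were closest to cluster 14. Free RNA may add to the low *alcamb* level of cluster 14, with 0.423 UMIs per erythroid-like cell of 60 hpf, and its part was not tested. *dscaml1* followed *alcama*, with 0.905 and 0.785 in clusters 1 and 11 and 0.0356 and 0.0668 in clusters 4 and 14. *ncam2* was 8.51 in cluster 4 and 2.01 to 2.51 in the others. Cluster 14 had the most *cadm1a* (8.39, against 1.94 to 3.92 in the other 60 hpf clusters) and *nrcama* (1.17, against 0.339 to 0.377). The lower *dscama* of 60 hpf held in each cluster, at 0.955 to 1.69, against 3.59 and 2.19 in the 28 hpf clusters, and the higher *dscamb* likewise, at 1.77 to 3.95 against 0.211 and 0.509. Median depths were 11356 UMIs in cluster 1, 3934 in cluster 4, 4467 in cluster 11 and 5395 in cluster 14.

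**Figure D4:**
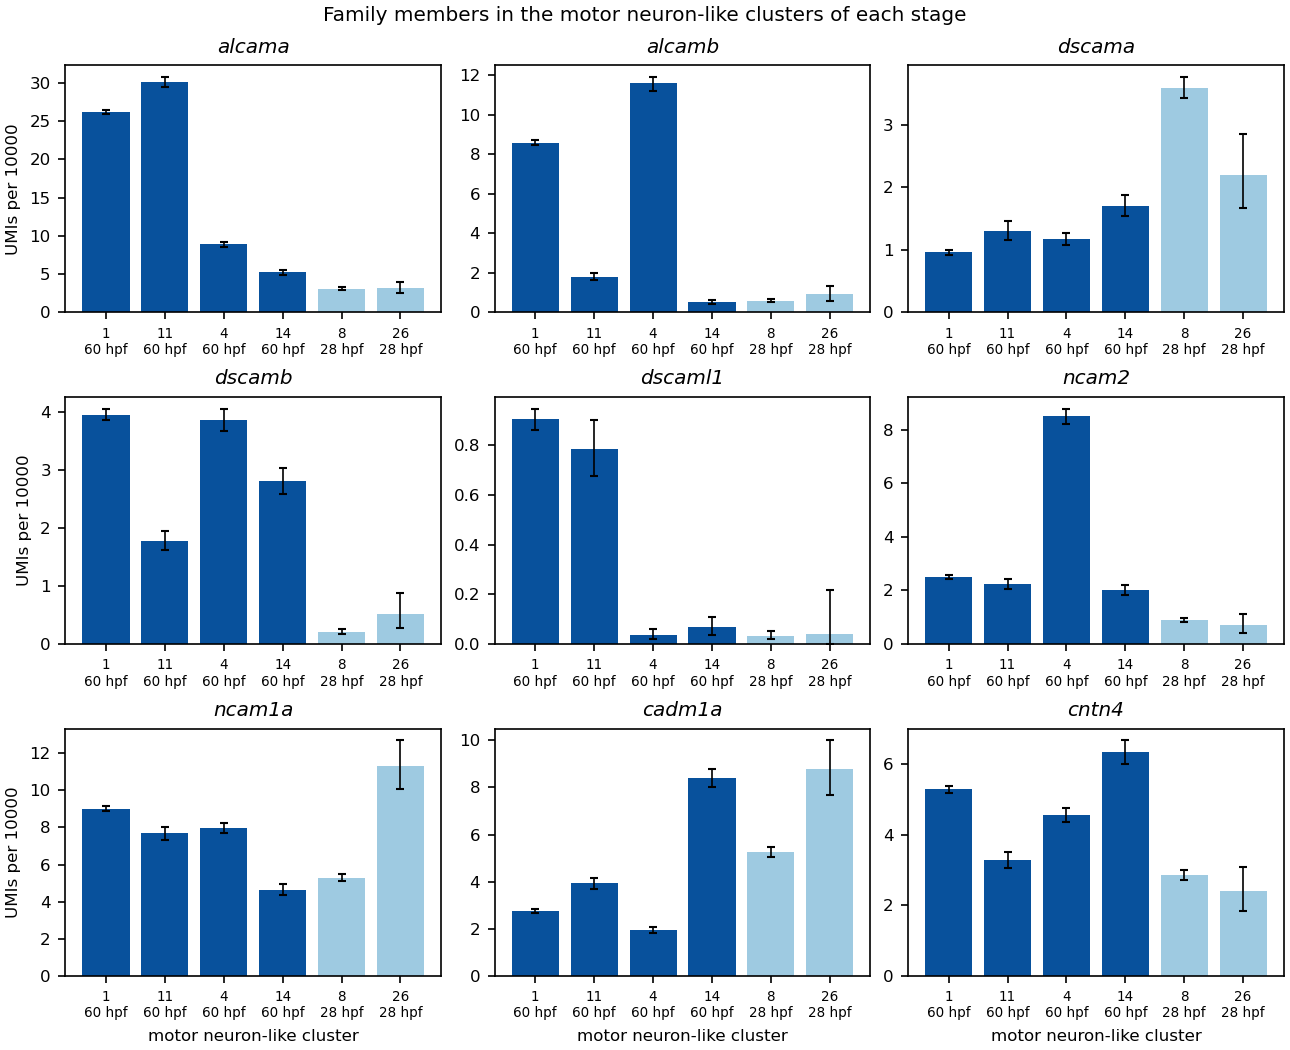
Levels of 9 members in UMIs per 10000 (y axis) in the motor neuron-like clusters (x axis) of 60 hpf (dark bars: 1, 11, 4 and 14) and 28 hpf (light bars: 8 and 26), with 95% counting intervals. *alcama* is high in clusters 1 and 11 (26.2 and 30.1), *alcamb* and *ncam2* in cluster 4 (11.6 and 8.51) and *cadm1a* in cluster 14 (8.39).

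In pMN progenitor-like cells 5 of 30 members were higher and 3 lower at 60 hpf than at 28 hpf, with 17.1% of all genes higher and 4.74% lower. *alcama* was higher, 7.28 at 60 hpf against 1.44 at 28 hpf (log2 2.33, 2.16 to 2.5), and *alcamb* lower, 1.19 against 4.05 (log2 −1.77, −2.18 to −1.39). *igsf11* (log2 1.14) was higher too, but not with cells of at least 500 genes (log2 −0.29). The other 3 counted as higher were *dscamb* (0.305 UMIs per pMN progenitor-like cell and 0.313 per erythroid-like cell of 60 hpf), *cntn4* (0.153 and 0.4) and *ncam2* (0.102 and 0.274). All were below the mean of erythroid-like cells and are not read as expression. *ncam1b* (1.08 and 3.25, log2 −1.59) and *cadm3* (log2 −1.5) were lower. Within cluster 15 alone, which held cells of both stages, *alcama* was 7.93 at 60 hpf and 0.653 at 28 hpf, and *alcamb* 0.766 and 3.89.

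The oligodendrocyte lineage was present at 60 hpf only. Against *olig2*-high radial glia-like cells, 16 of 32 members were higher in OPC/OL-like cells and 10 lower, with 26.3% of all genes higher and 15.9% lower. The class came apart into a part with myelin genes (132 cells, *mbpb* 80.9 and *mag* 11.5 per 10000, *olig1* 0.00894), in which 8 of the 10 leading genes were hemoglobin genes and hemoglobin made up 10.8% of UMIs, a part with *olig1* (171 cells, *olig1* 9.03, *mbpb* 0.752) and a mixed part (48 cells) led by motor neuron genes such as *bmp16*, *esrrga* and *lhx4*, in which 43.8% of cells were predicted doublets, against 6.06% of the myelin-gene part and 0.585% of the *olig1* part. Without the mixed part 10 of 29 members were higher and 12 lower, with 23.6% of all genes higher and 19.5% lower. *cntn4*, *cntn2* and *cntn5* then turned to the lower side (log2 −2.13, −1.04 and −0.37 instead of 1.32, 1.26 and 1.55), and the median over members was −0.39 instead of 0.95. The contactin ratios of this contrast are therefore not read further.

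*opcml* (ENSDARG00000013005), the opioid-binding IgLON gene, gave the largest difference, 4.43 in OPC/OL-like and 0.0704 in radial glia-like cells (log2 5.98, 5.41 to 6.61). It was found in 35.7% (30.7 to 41%) of thinned OPC/OL-like cells, 7.45% (6.5 to 8.48%) of motor neuron-like cells, 0.664% (0.137 to 1.93%) of radial glia-like cells and 0.377% of erythroid-like cells, and without thinning in 49.0%, 20%, 2.86% and 1.89%. *cadm4* was 14 and 1.60 (log2 3.13, 3.01 to 3.26), *dscamb* 3.64 and 0.242 (log2 3.91), *dscama* 0.806 and 0.0620 (log2 3.70), *igsf9ba* 1.07 and 0.0901 (log2 3.57), *dscaml1* 1.5 and 0.206 (log2 2.86), *nfasca* 1.41 and 0.575 (log2 1.29) and *igsf11* 1.81 and 0.783 (log2 1.21). Lower in OPC/OL-like cells were *alcama* (3.88 and 13.6, log2 −1.81), *alcamb* (1.04 and 2.93, log2 −1.49), *ncam1a* (2.9 and 7.61, log2 −1.39), *ncam1b* (log2 −1.65), *cadm1a* (0.557 and 2.69, log2 −2.27), *mcama* (0.0658 and 0.535, log2 −3.02), *igsf9a* (log2 −2.24), *igsf9bb* (log2 −2.35) and *igsf9b* (log2 −2.23), together with *igsf5b* with 1 UMI against 26 (log2 −4.40, −9.76 to −1.80). The mixed part carried most of the ALCAM signal: without it *alcama* was 1.25 (log2 −3.44) and *alcamb* 0.365 (log2 −3.00) in OPC/OL-like cells, and at 0.95 and 0.277 UMIs per cell both were below erythroid-like cells (1.75 and 0.423). *opcml* (5.15), *cadm4* (13.9) and *dscamb* (3.37) stayed close to their levels with it. Hemoglobin genes made up 4.33% of the UMIs of OPC/OL-like and 0.310% of radial glia-like cells. The dissociation genes were at 63.6 and 113 per 10000, and the part of neither was tested. With hemoglobin and mitochondrial genes left out of the totals the counts were again 16 higher and 10 lower, of 32 members. Over all genes 28.1% were then higher and 15.3% lower.

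The parts with and without myelin genes carried different members. In the myelin-gene part *opcml* was 9.95, *igsf11* 3.73 and *nfasca* 3.31, and in the *olig1* part 0.617, 0.558 and 0.0592. The reverse held for *dscamb* (0.885 in the myelin-gene part and 5.72 in the *olig1* part), *dscaml1* (0.635 and 2.2), *dscama* (0.143 and 1.36), *igsf9ba* (1 UMI and 2.0 per 10000) and *ncam1a* (1.0 and 3.24). *cadm4* was shared, at 13.3 and 14.4. Thus *opcml*, *igsf11* and *nfasca* were higher in the myelin-gene part and the DSCAM genes and *igsf9ba* in the *olig1* part, while *cadm4* was at a like level in both. The parts were chosen by clustering these same cells, so the values are a description.

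**Figure D5:**
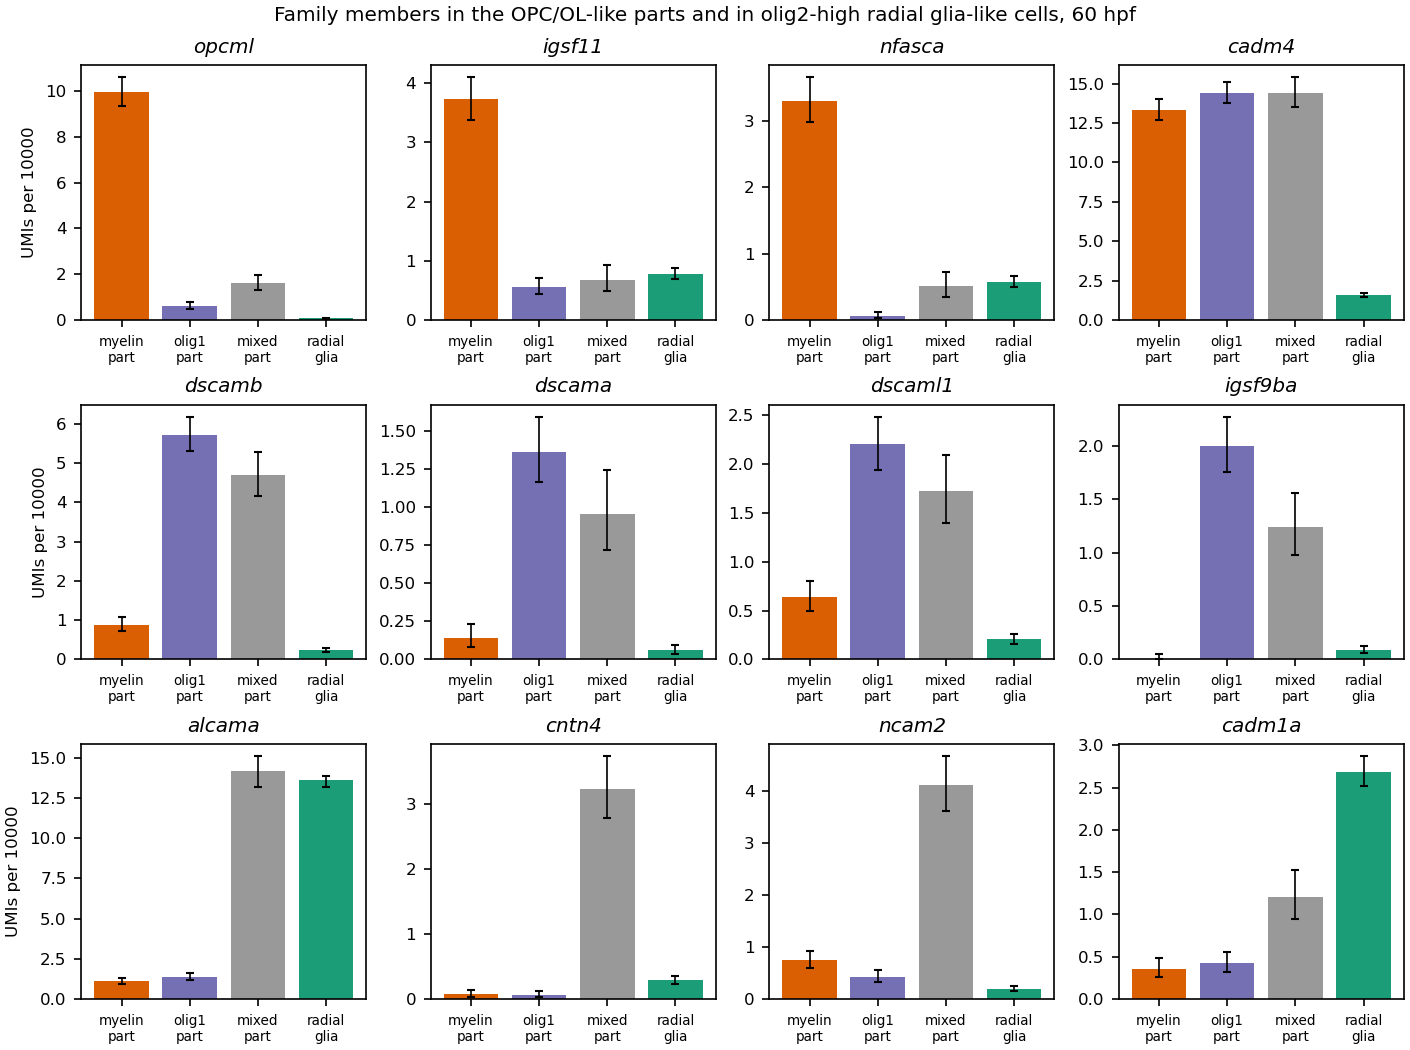
Levels of 12 members in UMIs per 10000 (y axis) in the myelin-gene, *olig1* and mixed parts of the OPC/OL-like class and in *olig2*-high radial glia-like cells of 60 hpf, with 95% counting intervals. *opcml* is high in the myelin-gene part (9.95), *dscamb* in the *olig1* part (5.72) and *cntn4* in the mixed part (3.23), while *cadm4* is high in all 3 (13.3 to 14.4).

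Set against motor neuron-like cells, OPC/OL-like cells had 4 of 42 members higher and 26 lower, with 18.3% of all genes higher and 22.2% lower. The higher ones were *opcml* (4.43 and 0.414, log2 3.42, 3.30 to 3.53), *igsf11* (1.81 and 0.322, log2 2.49), *dscaml1* (1.5 and 0.697, log2 1.1) and *igsf9ba* (1.07 and 0.534, log2 1.01). In a finer clustering (resolution 2), where the class held 111 cells of the myelin-gene part, 7 of the mixed part and 0 of the *olig1* part, *dscaml1* and *igsf9ba* were lower (log2 −0.30 and −4.18). *dscamb* was level over the whole class, at 3.64 and 3.65, but was 0.885 in the myelin-gene part, 5.72 in the *olig1* part and 4.69 in the mixed part. Among the members lower by much were *cntn1b* (1 UMI and 135, log2 −3.76, −9.07 to −1.26), *alcamb* (1.04 and 7.75, log2 −2.9), *cntn2* (log2 −2.91), *nrcama* (log2 −2.89), *cntn4* (0.709 and 5.09, log2 −2.84) and *alcama* (3.88 and 22.3, log2 −2.52). These OPC/OL-like levels came in part from the mixed part, and without it the ratios were larger, at log2 −6.29 for *cntn4*, −5.21 for *cntn2*, −4.41 for *alcamb*, −4.15 for *alcama* and −3.48 for *nrcama*, while *cntn1b* was at 0 UMIs. Against the 59 pMN progenitor-like cells, 13 of 28 members were higher and 4 lower, with 29.6% of all genes higher and 11.4% lower. *opcml* (4.43 against 2 UMIs, log2 6.68, 4.83 to 9.73) and *cadm4* (log2 3.13) were the clearest higher members by their counts, and *chl1b* was lower, 2.89 and 10 (log2 −1.79, −1.96 to −1.63), but not with cells of at least 500 genes (log2 0.28).

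Copies that arose by duplication could be compared within a class, since UMIs of the 3′ protocol count molecules and are not scaled by gene length, although capture may differ between genes. The balance of *alcama* over *alcamb* was log2 1.52 in motor neuron-like cells at 60 hpf and 2.36 at 28 hpf, but 2.62 and −1.49 in pMN progenitor-like cells, 2.34 and −0.50 in GABAergic cells and 1.44 and −0.92 in V3 interneuron-like cells. The balance of *dscama* over *dscamb* was −1.75 at 60 hpf and 3.96 at 28 hpf in motor neuron-like cells, and −1.19 and −0.50 in GABAergic cells. The ALCAM pair therefore leaned towards another copy at 60 hpf than at 28 hpf in pMN progenitor-like, cycling progenitor-like, GABAergic and V3 interneuron-like cells. In cycling progenitor-like cells the balance was 2.37 at 60 hpf (26 cells) and −1.34 at 28 hpf. In floor plate-like cells it was 2.69 at 60 hpf and near even at 28 hpf (0.02, −0.21 to 0.24). The DSCAM pair changed its leading copy in motor neuron-like cells and also in V3 interneuron-like cells (−1.44 at 60 hpf and 1.62 at 28 hpf). In pMN progenitor-like cells it was −1.58 and 1.53, from only 6 and 18 UMIs at 60 hpf, and is not read. GABAergic cells leaned to *dscamb* at both stages. The library and the age are not told apart, and the GABAergic class also changed clusters. At 28 hpf 684, 637 and 242 of its cells lay in clusters 6, 7 and 19, while at 60 hpf 234 of 342 lay in cluster 20. Free RNA may add to *alcama* at 60 hpf, with 1.75 UMIs per erythroid-like cell. GABAergic cells had 936 *alcama* UMIs in 342 cells and V3 interneuron-like cells 569 in 251, and the part of free RNA was not tested. *igsf21a* over *igsf21b* was 5.10 at 60 hpf and −2.92 at 28 hpf in motor neuron-like cells, and *mcama* over *mcamb* 3.17 and −3.17 in V3 interneuron-like cells, the last from 3 and 27 UMIs at 28 hpf. The *cadm1*, *ncam1* and *chl1* pairs kept 1 leading copy in the classes with enough UMIs: *cadm1a* over *cadm1b* was lowest at 1.29 in GABAergic cells of 60 hpf, *ncam1a* over *ncam1b* at 0.32 in pMN progenitor-like cells of 28 hpf, and *chl1a* over *chl1b* ran from −0.85 in floor plate-like cells of 60 hpf to −7.26 in motor neuron-like cells of 28 hpf. *l1cama* and *l1camb* were close in motor neuron-like cells (0.09 at 60 hpf and 0.30 at 28 hpf), while *l1camb* led in GABAergic cells (−1.15 and −0.86). *mcama* over *mcamb* was 4.25 in *olig2*-high but −3.27 in *olig2*-low radial glia-like cells, and *igsf9ba* over *igsf9bb* 4.69 in OPC/OL-like but −2.17 in *olig2*-low radial glia-like cells. Of the OPC/OL-like *igsf9ba* UMIs, 236 were in the *olig1* part, 73 in the mixed part and 1 in the myelin-gene part. The myelin-gene part had 7 *igsf9bb* UMIs.

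*igsf3*, one of the *igsf* genes with most UMIs, was 0.811 in *olig2*-high radial glia-like cells and 0.557 in motor neuron-like cells at 60 hpf, and at 28 hpf 0.257 in motor neuron-like and 0.352 in pMN progenitor-like cells (log2 −0.46). Among motor neuron-like cells it was higher at 60 hpf than at 28 hpf (log2 1.12, 0.87 to 1.38). The members not named so far were low: *igsf8* reached 0.465 (in motor neuron-like cells at 28 hpf), *cntn3b* 0.214, *cadm2b* 0.0567, *cadm2a* 0.0302 and *ncam3* 0.0216 per 10000 in their highest neural class, and *igsf10* had 24 UMIs in all.

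A list of 27 identifiers of the family's enzymes and partners gave the setting: polysialyltransferases, which add polysialic acid to NCAM, ankyrins, which anchor L1 proteins to the membrane skeleton, *cntnap* genes, whose proteins pair with contactins, and matrix or receptor partners. Of 24 with enough UMIs, 18 were higher and 5 lower in motor neuron-like than in pMN progenitor-like cells at 28 hpf (median log2 2.84). Over all genes 32.5% were higher and 26.6% lower, so the lower ones are not more than this background. *cntnap2a* had 3.17 and 0.0835 (log2 5.25) and *ncanb*, a neurocan gene, 0.709 and 0.0147 (log2 5.59), whereas *fgfr1b* (0.138 and 3.03, log2 −4.45), *ptprz1b*, a contactin-binding phosphatase (log2 −3.12), and *tnc*, a tenascin gene (log2 −2.83), were lower. Against *olig2*-high radial glia-like cells at 60 hpf, 17 of 25 were higher and 4 lower, with 26.8% of all genes higher and 16% lower. The same *fgfr1b* (log2 −3.28), *ptprz1b* (−3.10) and *tnc* (−2.95) were at the low end. In OPC/OL-like cells only 2 of 25 were higher than in motor neuron-like cells and 17 lower, with 18.3% of all genes higher and 22.2% lower. *tnr*, the tenascin-R gene known from oligodendrocytes, was one of the 2 (3.90 in OPC/OL-like and 0.677 in motor neuron-like cells, log2 2.53).

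A second list of 35 identifiers of immunoglobulin adhesion genes outside the rule was divided more evenly. In motor neuron-like over pMN progenitor-like cells at 28 hpf, 12 of 28 were higher and 9 lower (median 0.19, the same as over all genes). Of all genes 32.5% were higher and 26.6% lower. The neuroplastin genes *nptna* (5.21 and 0.247, log2 4.40) and *nptnb* (1.64 and 0.0275, log2 5.90) were higher, and *nectin1b* (0.303 and 4.18, log2 −3.79) and *jam3b* (0.122 and 1.02, log2 −3.06), which encode junction proteins, were lower. In GABAergic over pMN progenitor-like cells *kirrel3a* led this list (4.63 and 0.125, log2 5.22), and in OPC/OL-like cells *mag*, the myelin-associated glycoprotein gene, had 4.61 against 0.0422 in radial glia-like cells (log2 6.77).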

How the data were processed

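Fluorescent cells of *Tg(olig2:dsred)* trunks were measured at 60 hpf and 28 hpf, 1 library each, grouped by their labels. The deposited matrices hold whole UMI counts of each gene by cell, not normalized. The authors used a 3′ V3 kit and Cell Ranger 5.0.0 with GRCz11 (file headers and the submitters' processing notes). The annotation release is not given in the sources used here. Cells with at least 1000 genes and genes in at least 3 cells were kept (8390 cells at 28 hpf and 5517 at 60 hpf, median depths 7375 and 6809 UMIs). Both libraries were clustered together in scanpy 1.11.5 (10000 per cell, log, 4000 variable genes, 50 components, 15 neighbours, Louvain by igraph 0.11.9 at resolution 1, seed 7), with the members and both adhesion lists left out. Clusters were named by the marker list whose median log2 fold was greatest (at least 1, with 3 markers found in 5% of its cells). An *olig2*-high cluster had at least 10 *olig2* UMIs per 10000. That rule, the contrasts against this class and the leaving out of single clusters or parts were chosen after the clusters were seen.

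Levels are summed UMIs per 10000 with exact Poisson 95% intervals, shares have exact binomial intervals, and ratios have intervals conditional on the total. A difference counted from 2-fold upward, given 20 UMIs or more in 1 of the classes. Counts under 3 were raised to 3 for this call, only in the class with the lower level and no further than the level of the other, a limit set after the values were seen. For shares, cells were thinned to 2000 UMIs. UMIs per cell were set beside those of erythroid-like cells as a rough gauge of free RNA, a comparison added after the values were seen. No cells were removed as doublets. The 806 cells predicted by the Scrublet score (563 at 28 hpf and 243 at 60 hpf, 0.8% for each 1000 cells) were removed in alternatives only. Named members were up to 6 at each end of a contrast, the 2 with most UMIs in a subfamily and copies of either, and from the lists 3 at each end. The members and lists were chosen with earlier results of these data known. Alternatives were a 500-gene minimum, doublets removed, resolution 2, separate clustering of the libraries, clustering with all variable genes, a mean over cells, 1.5-fold, 50 UMIs, totals that omit hemoglobin and mitochondrial genes, and a thinning depth of 1000 UMIs. The rule was tested on simulated data that held counting error only. Counts of both classes were drawn from the pMN progenitor-like profile, with no spread between cells, embryos or libraries. The figures therefore do not measure false calls in these unreplicated libraries. For motor neuron-like over pMN progenitor-like cells at 28 hpf it found, of 200 genes drawn from 9805 with enough UMIs, 198 when changed 3-fold and 183 when changed 2.5-fold, and called 168 of 12001 unchanged genes beside the 3-fold set. For OPC/OL-like over pMN progenitor-like cells at 60 hpf it found 198 and 182 of 200 drawn from 2842, and called 343 of 8303. Python 3.11.15, numpy 2.4.6, scipy 1.17.1, pandas 2.3.3, anndata 0.12.19, scikit-learn 1.9.0 and matplotlib 3.10.9 were used. The 42 hpf stage was not analysed here.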

Additional observations from a re-analysis of the deposited data

Results flagged for a closer look

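The *alcamb* gene lay on opposite sides of the pMN progenitor-like cells at the 2 stages. Its log2 ratio in motor neuron-like over pMN progenitor-like cells was 2.71 at 60 hpf, from 22330 UMIs in 2928 motor neuron-like cells and 55 UMIs in 59 pMN progenitor-like cells, and −2.74 at 28 hpf, from 329 UMIs in 701 and 4125 UMIs in 1492 cells. The 60 hpf motor neuron-like clusters did not share 1 side: *alcamb* was 8.57 and 11.6 per 10000 in clusters 1 and 4 and 1.8 in cluster 11, but 0.498 in cluster 14, against 1.19 in pMN progenitor-like cells, 45 of which lay in a cluster with *hox13* genes. Erythroid-like cells of 60 hpf had 0.423 *alcamb* UMIs per cell, and the part of free RNA in the cluster 14 level was not tested. With 1 library per stage the difference between the stages was not tested.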

How the results depend on the processing

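No paired analysis was possible because there was 1 library per stage and no test. Of the alternative values of the counts of members and of the ratio of members per cell, 186 stayed and 22 moved. A count stayed if it was within 1.5 times, and the ratio of members per cell if it was the same to 2 digits. Of the single-member ratios, 1829 stayed within their interval, 380 moved and 23 turned round. No alternative moved the counts of motor neuron-like over pMN progenitor-like cells at 28 hpf. For the counts that moved, the percentage in brackets is the share over all genes by the same rule and setting. With at least 500 genes per cell, the lower members were 1 of 44 in motor neuron-like over pMN progenitor-like cells at 60 hpf (12.9%). They were 7 of 35 in neuronal precursor-like over pMN progenitor-like cells (22.5%) and 7 of 32 in pMN progenitor-like cells, 60 over 28 hpf (6.2%). With 1.5-fold the lower members were 8 of 35 in neuronal precursor-like (31.6%) and 7 of 39 in GABAergic over pMN progenitor-like cells (19.4%). They were 5 of 42 in motor neuron-like over *olig2*-high radial glia-like cells (22.5%). At 1.5-fold, 10 of 30 members were higher in pMN progenitor-like cells across stages (30.8%). With 50 UMIs that count was 2 of 22 (13.6%), and 2 of 22 members were lower in OPC/OL-like over pMN progenitor-like cells (9.09%). The lower members of motor neuron-like over *olig2*-high radial glia-like cells were 5 of 42 with doublets removed (17.4%) and 5 of 42 with all variable genes (16.7%). The lower members of GABAergic over pMN progenitor-like cells were 1 of 39 at resolution 2 (8.49%) and 1 of 39 with the libraries clustered separately (9.76%). They were 4 of 39 as a mean over cells (15.2%) and, chosen after seeing the data, 6 of 36 without cluster 7 (21.6%). Each library on its own gave 7 of 32 higher in neuronal precursor-like cells (5.65%). In OPC/OL-like over *olig2*-high radial glia-like cells 7 of 32 were higher at resolution 2 (20.1%) and 10 of 29 without the mixed part (23.6%). Without that part 7 of 23 were lower in OPC/OL-like over pMN progenitor-like cells (12.4%). Raising counts to 3 without a limit gave 6 of 42 lower in motor neuron-like over pMN progenitor-like cells at 60 hpf (38.3%). It gave 8 of 30 higher in pMN progenitor-like cells across stages (28.2%). Thinned to 1000 UMIs, the ratio of members per cell was 1.94 in motor neuron-like over *olig2*-high radial glia-like cells.

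Turned round with at least 500 genes were *mcama* (−0.15), *igsf11* (0.06) and *igsf9a* (0.04) in motor neuron-like over pMN progenitor-like cells at 60 hpf, *chl1b* (0.28) and *igsf9a* (0.57) in OPC/OL-like over pMN progenitor-like cells, and *igsf11* (−0.29) in pMN progenitor-like cells across stages. In OPC/OL-like over *olig2*-high radial glia-like cells, *cntn5* turned with doublets removed (−0.53), *cntn4* (−1.33), *igsf9ba* (−2.11) and *cntn2* (−0.60) at resolution 2, *cntn4* with all variable genes (−0.69), and *cntn4* (−2.13), *cntn2* (−1.04) and *cntn5* (−0.37) without the mixed part. In OPC/OL-like over pMN progenitor-like cells *l1camb* turned with all variable genes (−1.13), and *cntn4* (−1.58) and *l1camb* (−0.99) without the mixed part. In OPC/OL-like over motor neuron-like cells *dscaml1* turned to −0.30 and *igsf9ba* to −4.18 at resolution 2, and to −0.18 and −4.61 with the libraries clustered separately; under these settings 111 of 118 and 129 of 138 cells of the class came from the myelin-gene part, and 0 and 1 from the *olig1* part. With each library on its own, *igsf5b* (−0.20) and *igsf9a* (−2.40) turned in motor neuron-like cells across stages. For the other values the cause was not tested. The pMN progenitor-like class of 60 hpf gave no value with doublets removed (14 cells), at resolution 2 (10 cells) or with each library on its own, nor did the *olig2*-high radial glia-like class in the last.

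Limits are the single library per stage, which leaves the spread between embryos unknown, the small pMN progenitor-like class of 60 hpf and class names rebuilt from markers. Levels at or below those of erythroid-like cells per cell cannot be told from free RNA.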
